A study of Mus musculus with 6 samples.

Results

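The serine synthesis and folate enzymes described here are 9 genes, taken by their symbols from the gene list of all 6 count matrices, which hold 31053 genes. Phgdh, Psat1 and Psph encode the enzymes that make serine from a glycolytic intermediate, in that order. Shmt1 (cytosol) and Shmt2 (mitochondria) split serine into glycine and a single-carbon unit carried by folate. Mthfd1 handles this folate-bound carbon in the cytosol, and Mthfd2, Mthfd1l and Aldh1l2 do so in mitochondria. All 9 were detected, with between 2077 UMIs (Aldh1l2) and 94051 UMIs (Psat1) in the main cell population.

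The tumours were grown from YUMMER1.7, a mouse melanoma line derived by ultraviolet irradiation, of which 600000 cells were placed under the skin of male C57Bl/6 mice aged 6 to 8 weeks. Libraries called sedentary 1, 2 and 3 came from mice that did not run, and exercise 5, 6 and 8 from runners, with a speed of 12 m/min held for 45 min daily over 14 days. All 6 therefore share the line, sex, strain and site, and the comparisons of the design are running against no running and, within each tumour, cell class against cell class. Tumours were dissociated whole with no sort, so host cells are present, and RNA was counted with a droplet 3' method that tags each captured molecule with a unique molecular identifier (UMI). Beyond sample names, the labels do not say whether the libraries are separate animals, so p-values measure the spread between these libraries.

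Serine feeds glycine, glutathione and the folate pool, which carries single-carbon units into purines, thymidylate and methionine. The folate reactions run in parallel in mitochondria, where serine is mostly broken down to formate, and in the cytosol, where formate is used. Dividing cells draw on the pathway for nucleotides, PHGDH is amplified in some melanomas, and activated T cells are known to induce the same enzymes.

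The libraries held between 97426009 and 131778565 UMIs over 58351 barcodes, of which 51529 cells were kept. Over all kept cells sedentary 2 and exercise 5 were the shallowest, with medians of 6490 and 5895 UMIs per cell against 10489.5 to 12426 in the others. Kept barcodes found in more than 1 library numbered 300, with 16 to 29 shared by any pair of libraries. Cells were classed by markers, none of them a member gene. The main non-immune class held 27369 cells, 35.6% to 61.6% of a library, of which 6585 lay at the threshold of 3 markers. Sedentary 2 and exercise 5 had its smallest shares, 39.5% and 35.6%, and its deepest cells, with medians of 26084 and 22404.5 UMIs. The main non-immune class expressed Prrx1 at 390 CPM (UMIs per 1000000 UMIs of the class). Melanocyte genes were nearly absent: of its 579845761 UMIs, Sox10 took 1, Tyr 5, Mlana 7, Dct 9 and Pmel 151, while Mitf took 5687. The labelled tissue is melanoma, and the class is named by its rule because its pigment cell markers do not bear out that label. Its fibroblast marker list summed to 812.6 to 1098 CPM, with Col1a1 at 10.05 CPM. Macrophage and monocyte-like cells numbered 6232 and CD8 T-like cells 2348. Smaller classes were NK-like (667), neutrophil-like (483), CD4 and Treg-like (229) and dendritic-like cells (100).

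The 9 genes lie on 7 chromosomes of the mouse build GRCm38, all as protein-coding genes. The serine synthesis genes are Phgdh (ENSMUSG00000053398, chr3:98313170-98339990), Psat1 (ENSMUSG00000024640, chr19:15904678-15947337) and Psph (ENSMUSG00000029446, chr5:129765558-129787449). The serine hydroxymethyltransferases are Shmt1 (ENSMUSG00000020534, chr11:60788104-60811718) and Shmt2 (ENSMUSG00000025403, chr10:127517123-127522444). The remaining folate enzymes are Mthfd1 (ENSMUSG00000021048, chr12:76255298-76319803), Mthfd2 (ENSMUSG00000005667, chr6:83305691-83325908), Mthfd1l (ENSMUSG00000040675, chr10:3973118-4167081) and Aldh1l2 (ENSMUSG00000020256, chr10:83487450-83534140). Mthfd2 and Mthfd1l overlap other annotated genes on their own strand (Gm43890, and Gm16074 and Gm25515). Of the 50-base words in the last 400 bases of the Phgdh transcripts, 51.0% also occur in transcripts of 16 other annotated genes, none of which the matrices list, while the other 8 members share none. Reads of Phgdh may therefore match several places.

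The promoters of Phgdh, Psat1, Psph, Mthfd2 and Shmt2 are shown because the levels of these 5 members were the most alike over single main non-immune cells. Each line gives the 250 bases before the start that RefSeq lists in GRCm38.p6, read 5′ to 3′ on the gene's own strand, with the motif CCAAT (or its reverse complement ATTGG) in capitals. All 5 genes lie on the minus strand, at chr3:98339970-98340219, chr19:15925060-15925309, chr5:129787254-129787503, chr6:83317605-83317854 and chr10:127522445-127522694 in the order shown.
Phgdh: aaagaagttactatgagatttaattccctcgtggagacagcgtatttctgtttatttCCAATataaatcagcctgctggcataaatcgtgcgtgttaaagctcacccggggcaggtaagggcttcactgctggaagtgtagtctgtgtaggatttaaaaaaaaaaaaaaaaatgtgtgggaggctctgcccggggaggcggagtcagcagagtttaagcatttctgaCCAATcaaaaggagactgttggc
Psat1: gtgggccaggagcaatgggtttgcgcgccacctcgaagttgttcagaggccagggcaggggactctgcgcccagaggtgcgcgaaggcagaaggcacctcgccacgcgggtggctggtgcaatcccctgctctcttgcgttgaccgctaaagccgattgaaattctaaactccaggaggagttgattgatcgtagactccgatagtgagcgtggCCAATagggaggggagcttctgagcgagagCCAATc
Psph: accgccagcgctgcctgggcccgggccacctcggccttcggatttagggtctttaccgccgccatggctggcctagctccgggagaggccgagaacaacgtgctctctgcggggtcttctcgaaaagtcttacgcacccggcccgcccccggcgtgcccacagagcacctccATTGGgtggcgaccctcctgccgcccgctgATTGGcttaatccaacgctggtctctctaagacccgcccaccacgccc
Mthfd2: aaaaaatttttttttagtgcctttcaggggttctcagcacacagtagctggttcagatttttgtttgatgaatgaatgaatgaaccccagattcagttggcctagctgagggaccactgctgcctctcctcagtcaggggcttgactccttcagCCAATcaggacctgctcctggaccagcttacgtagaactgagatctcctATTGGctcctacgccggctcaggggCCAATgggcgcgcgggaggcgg
Shmt2: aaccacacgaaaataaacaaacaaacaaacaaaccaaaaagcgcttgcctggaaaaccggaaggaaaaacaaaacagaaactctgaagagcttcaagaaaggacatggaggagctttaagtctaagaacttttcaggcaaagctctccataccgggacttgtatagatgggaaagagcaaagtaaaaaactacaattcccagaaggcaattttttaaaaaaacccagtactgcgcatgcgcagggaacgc
A promoter entry was found for 8 of the 9 members, and not for Aldh1l2. CCAAT on either strand occurred in 6 of the 8, against 33.8% of all 32851 promoter windows of the same length. Mthfd2 held 3 matches, as did 2.79% of all windows at that number or more, and Phgdh and Psph held 2 each, as did 10.1% at that number or more. Psat1 held 2 at the start shown and 0 at a second listed start, Shmt1 and Mthfd1 held 1 each, and Shmt2 and Mthfd1l held none. The motif CACGTG was in 0 of the 8 (6.02% of all windows), TGATGNAA in 0 (3.45%) and GCGGGAA in 1, Mthfd1 (3.82%), each searched on both strands. These matches describe the letters only.

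The serine synthesis genes were abundant in the main non-immune cells and, for the first and last step, at least as high in T cells. Levels are CPM of summed UMIs per class and library; a 3' tag counts a molecule once, so gene length does not enter when genes are compared. Phgdh, the first enzyme of the path, stood between 93.6 and 163 CPM in main non-immune cells with a median of 113 over the 6 libraries. In CD8 T-like cells it ranged from 117.8 to 184 CPM with a median of 130.0, and in macrophage and monocyte-like cells from 7.26 to 14.6 with a median of 9.09. The main and CD8 T-like ranges overlapped, and every macrophage value lay far below both. Its mean was highest in CD4 and Treg-like cells, at 172 ± 67.3 CPM (SD, n = 5), a value resting on 128 UMIs. That range overlapped those of the CD8 T-like and main non-immune cells, the next 2 in order.

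Psat1, the aminotransferase of the path, had a different order. It stood at 131.9 to 188 CPM in main non-immune cells, at 45.5 to 66.8 in CD8 T-like cells and at 25.2 to 31.7 in macrophage and monocyte-like cells, with medians of 165, 59.4 and 29.7. No library of these 3 classes fell into the range of another of them. Psph, the phosphatase that releases serine, stood at 31.0 to 69.4 CPM with a median of 48.2 in main non-immune cells, and at 53.7 to 64.8 with a median of 58.1 in CD8 T-like cells. The macrophage range of Psph, 11.7 to 16.5 CPM, lay below both.

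**Figure D1:**
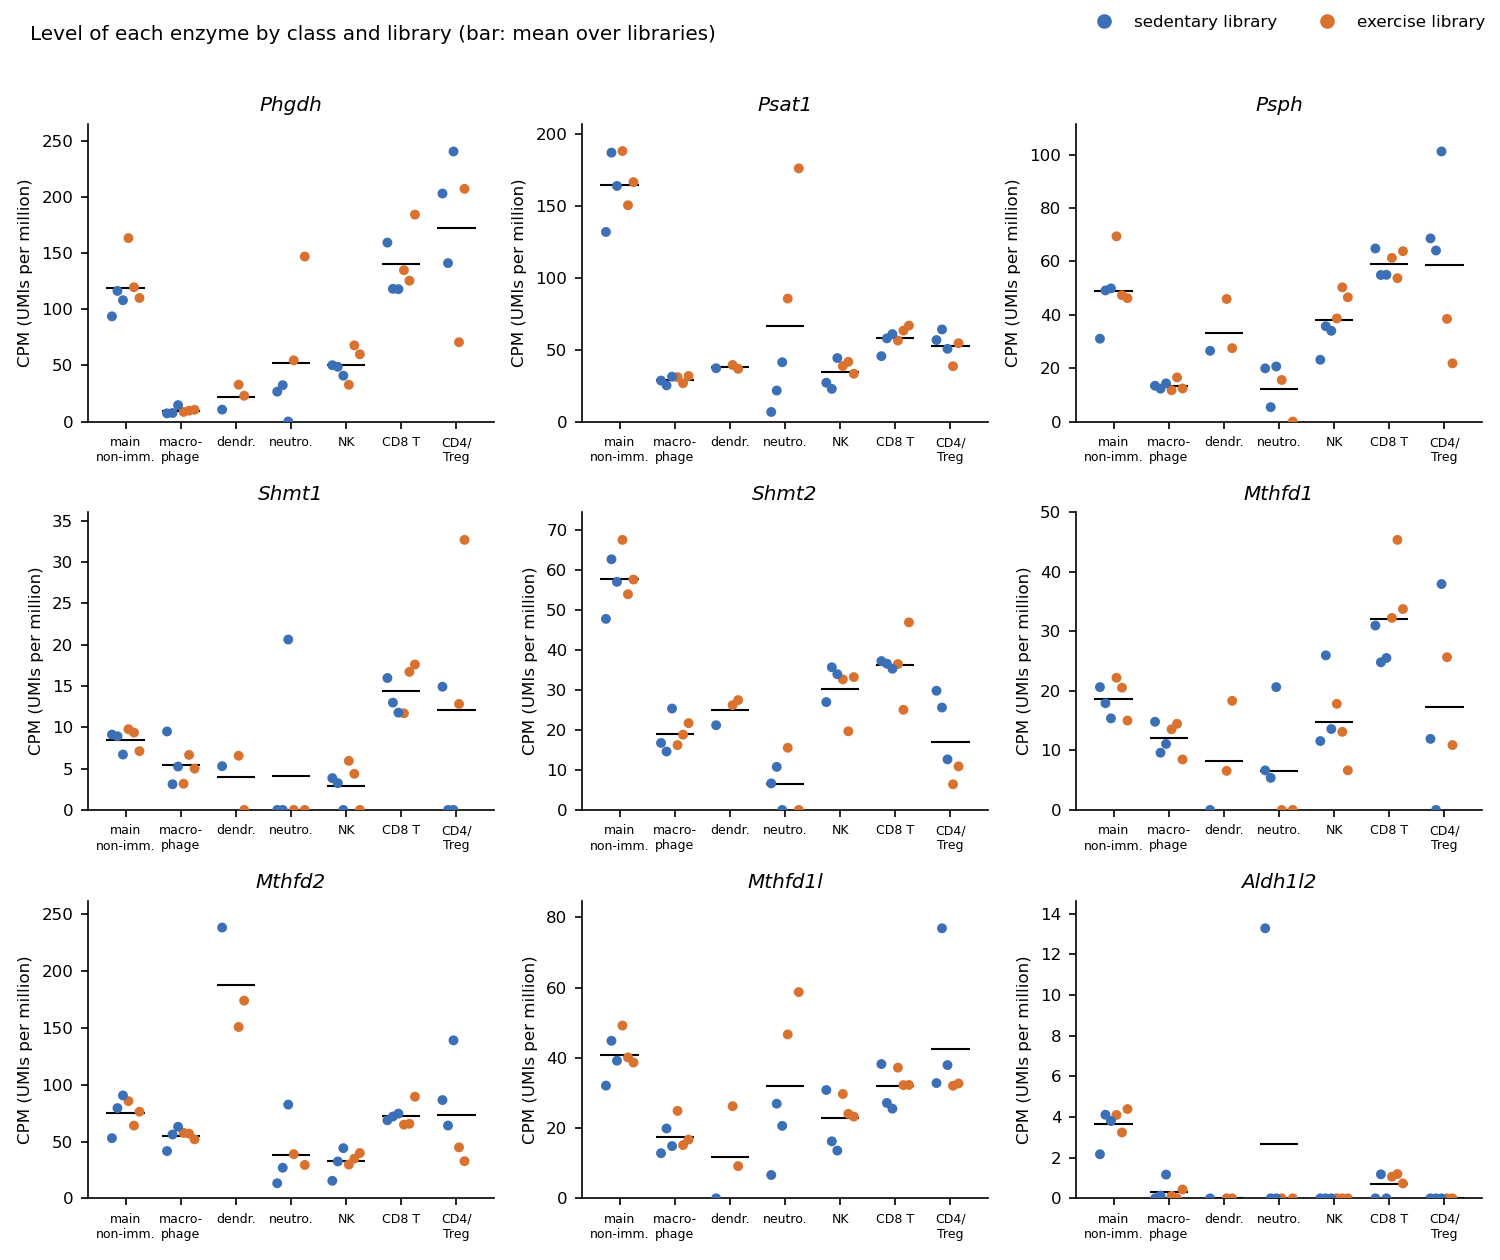
Level of each of the 9 genes in CPM (vertical axis) by cell class (horizontal axis), with 1 point per library, sedentary in blue and exercise in orange, and a bar at the mean. Phgdh is low in macrophage and monocyte-like cells (7.26 to 14.6 CPM) beside main non-immune (93.6 to 163) and CD8 T-like cells (117.8 to 184), and Mthfd2 is highest in dendritic-like cells (150.9 to 238).

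Of the 2 serine hydroxymethyltransferases the mitochondrial one was the more abundant in the 3 large classes. Shmt2 stood at 47.8 to 67.6 CPM in main non-immune cells, above its range of 25.1 to 46.9 in CD8 T-like cells and of 14.6 to 25.4 in macrophage and monocyte-like cells. Its cytosolic partner Shmt1 stood at 6.71 to 9.78, 11.7 to 17.6 and 3.11 to 9.50 CPM in those classes, so that CD8 T-like cells lay above main non-immune cells for Shmt1 and below them for Shmt2. Mthfd1, the cytosolic enzyme with 3 activities, followed Shmt1, at 15.0 to 22.2 CPM in main non-immune and 24.8 to 45.4 in CD8 T-like cells, ranges that did not overlap.

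Mthfd2, the mitochondrial dehydrogenase and cyclohydrolase, was lowest of the 3 large classes in macrophage and monocyte-like cells. Its median was 77.9 CPM in main non-immune, 70.4 in CD8 T-like and 56.6 in macrophage and monocyte-like cells. The CD8 T-like range of 64.9 to 89.5 CPM lay above the macrophage range of 41.6 to 63.0, and the main range of 53.0 to 90.6 overlapped both. In dendritic-like cells it stood at 238, 151 and 174 CPM in sedentary 1, exercise 5 and exercise 6, from 106 UMIs in the 3 libraries with at least 20 such cells. These values lay above every library of the next class, and no test was made on so few cells. Mthfd1l, which releases formate in mitochondria, ranged from 32.1 to 49.2 CPM in main non-immune and from 12.85 to 24.9 in macrophage and monocyte-like cells. Aldh1l2, which oxidises formyl-folate in mitochondria, was scarce throughout, at 2.17 to 4.39 CPM in main non-immune cells and with 8 and 7 UMIs in all in macrophage and CD8 T-like cells.

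Between main non-immune and macrophage and monocyte-like cells of the same tumours, the 8 members other than Aldh1l2 were called higher in the main cells (edgeR quasi-likelihood test with library as a block, adjusted p under 0.05). Of the 13698 genes tested, 79.6% were called, 41.3% higher and 38.3% lower in the main cells, so a call by itself is common here. The log2 fold change was 3.60 for Phgdh (SE 0.14, adjusted p = 2.12e-11) and 2.45 for Psat1 (SE 0.08). Psph followed at 1.81, Shmt2 at 1.58 and Mthfd1l at 1.16, and the smallest were Shmt1 at 0.69, Mthfd1 at 0.59 and Mthfd2 at 0.38. The median of these 8 was 1.37 beside 0.05 over all genes tested. The main cells were higher in 6 of 6 libraries for 7 of them and in 5 of 6 for Shmt1. Dividing cells, defined below, numbered 8270 of 27369 in the main class and 426 of 6232 in the macrophage class. Among non-dividing cells alone, mean Shmt1 was 2.42 CPM in main and 4.17 CPM in macrophage and monocyte-like cells. Mean Mthfd2 was 43.2 and 47.8 CPM in the same order. Phgdh, Psat1, Psph, Shmt2, Mthfd1l and Mthfd1 (10.2 against 9.44 CPM) had higher means in the main cells there too. The part of the dividing share in these differences was not tested. Aldh1l2 passed the filter on low counts through the main cells, with 2077 UMIs there and 8 in the macrophage sums, so its difference is not read.

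Against CD8 T-like cells the members divided. Of 13285 genes tested 72.8% were called, 40.7% higher and 32.2% lower in main non-immune cells, and of the 8 members other than Aldh1l2, 3 were called higher and 2 lower. Psat1 was higher in main non-immune cells (log2 fold change 1.59, SE 0.09, adjusted p = 1.02e-15), as were Shmt2 (0.73) and Mthfd1l (0.37). With 7 UMIs in the CD8 T-like sums, Aldh1l2 again passed the filter through the main cells and is not read. Both cytosolic folate enzymes were lower, Shmt1 at -0.66 (SE 0.17, adjusted p = 0.000917) and Mthfd1 at -0.68 (SE 0.13, adjusted p = 2.03e-05), each in 6 of 6 libraries. Phgdh (-0.18, SE 0.11, adjusted p = 0.144), Psph (-0.25, SE 0.12, adjusted p = 0.0742) and Mthfd2 (0.09, SE 0.10, adjusted p = 0.416) did not pass. Without exercise 5, the library with the highest main-cell value of Phgdh and Psph, both passed, at -0.30 (adjusted p = 0.0148) and -0.38 (adjusted p = 0.00829). Psph also passed with a mitochondrial limit of 10%, at -0.28 (adjusted p = 0.0412). Dividing cells numbered 418 of 2348 in the CD8 T-like class. Among non-dividing cells alone, mean Shmt2 was 23.9 CPM in main and 24.4 CPM in CD8 T-like cells. In the same order Phgdh stood at 57.2 and 93.8, Psph at 25.9 and 56.7, and Mthfd2 at 43.2 and 50.8 CPM. Psat1 (73.9 and 39.9) and Mthfd1l (30.6 and 25.5) were higher in the main cells, and Mthfd1 (10.2 and 22.5) lower. The part of the dividing share in these differences was not tested.

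CD8 T-like cells exceeded macrophage and monocyte-like cells in all 8 members tested, where 69.5% of 10361 genes were called, 32.9% higher and 36.6% lower. Phgdh differed most, at a log2 fold change of 3.82 (SE 0.13, adjusted p = 1.42e-16), followed by Psph at 2.09. Shmt1 stood at 1.43, Mthfd1 at 1.33, Shmt2 at 0.95, Psat1 at 0.92, Mthfd1l at 0.78 and Mthfd2 at 0.35. Aldh1l2 did not reach the filter on low counts. These 3 class comparisons share their sums in pairs, so their values are not independent of each other. Dividing cells also made up unlike parts of these 2 classes, and the part of this in their differences was not tested.

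Free RNA released from broken cells adds UMIs of main-cell genes to other droplets, and its size was read from 7 matrix genes that the immune classes should lack. Their summed level in macrophage and monocyte-like cells was 4.62% to 9.80% of that in main non-immune cells, and in CD8 T-like cells 5.65% to 9.28%. Phgdh in macrophage and monocyte-like cells stood at 5.23% to 13.5% of the main level, above the matrix genes in 5 of 6 libraries and close to them. How much of it was free RNA was not tested. The other members in that class lay above the matrix genes in 6 of 6 libraries, from a lowest value of 13.45% for Psat1, except Aldh1l2, which did so in 2 of 6. In CD8 T-like cells 8 members lay above them in all 6 libraries, with Phgdh at 82.5% to 170% of the main level. In neutrophil-like cells the matrix genes themselves reached 18.8% to 32.6%, so the members' levels there are not read as expression.

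The share of cells in which Phgdh was detected was compared at equal depth. A Phgdh UMI was seen in 49.3% to 73.6% of main non-immune, 25.5% to 40.0% of CD8 T-like and 3.71% to 6.69% of macrophage and monocyte-like cells, whose median depths were 15611 to 26084, 2598 to 3948 and 3989.5 to 5132.5 UMIs. Thinned to 2000 UMIs a cell, the shares were 11.6% to 22.8%, 16.1% to 26.0% and 1.43% to 3.40%. The main and CD8 T-like shares then overlapped, and 198, 490 and 657 shallower cells of these classes were left out. For Mthfd2 the thinned shares lay at 6.84% to 12.7%, 10.9% to 12.9% and 7.73% to 10.9% in the same order.

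The balance of the 2 arms was summed as UMIs of Shmt2, Mthfd2, Mthfd1l and Aldh1l2 over those of Shmt1 and Mthfd1. This ratio was 4.54, 7.12 and 8.63 for main non-immune cells of sedentary 1, 2 and 3, and for exercise 5, 6 and 8 it was 6.46, 5.40 and 8.00. It was 5.57 ± 1.62 in macrophage and monocyte-like cells and 3.13 ± 0.601 in CD8 T-like cells (SD, n = 6). The mitochondrial genes thus had the larger sum in every library of the 3 classes, with a lowest ratio of 2 in a CD8 T-like sum. That sum holds 4 genes and the cytosolic one 2, so an equal mean level per gene would give a ratio of 2. The cytosolic sum of CD8 T-like cells was as small as 19 UMIs, in sedentary 3.

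The ratio in main non-immune cells exceeded that in CD8 T-like cells of the same library in 6 of 6 libraries, by 1.09 ± 0.31 on the log2 scale (exact two-sided sign-flip permutation p = 0.03125, the smallest that 6 libraries allow; adjusted p = 0.0703 over 18 tests). Shmt2 made up 87.1% ± 2.14 of the Shmt1 and Shmt2 UMIs in main non-immune cells, 78.0% ± 7.80 in macrophage and monocyte-like and 71.2% ± 5.85 in CD8 T-like cells. Mthfd1l made up 68.5% ± 4.38, 58.9% ± 8.72 and 50.3% ± 4.86 of the Mthfd1 and Mthfd1l UMIs in the same order. The main class was the highest of the 3 for both shares in 6 of 6 libraries against each other class (exact permutation p = 0.03125 and adjusted p = 0.0703 each). No adjusted p of the 18 lay under 0.05. Main non-immune against macrophage and monocyte-like cells gave 0.29 ± 0.22 for the log2 ratio, positive in 5 of 6 libraries (exact permutation p = 0.0625).

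**Figure D2:**
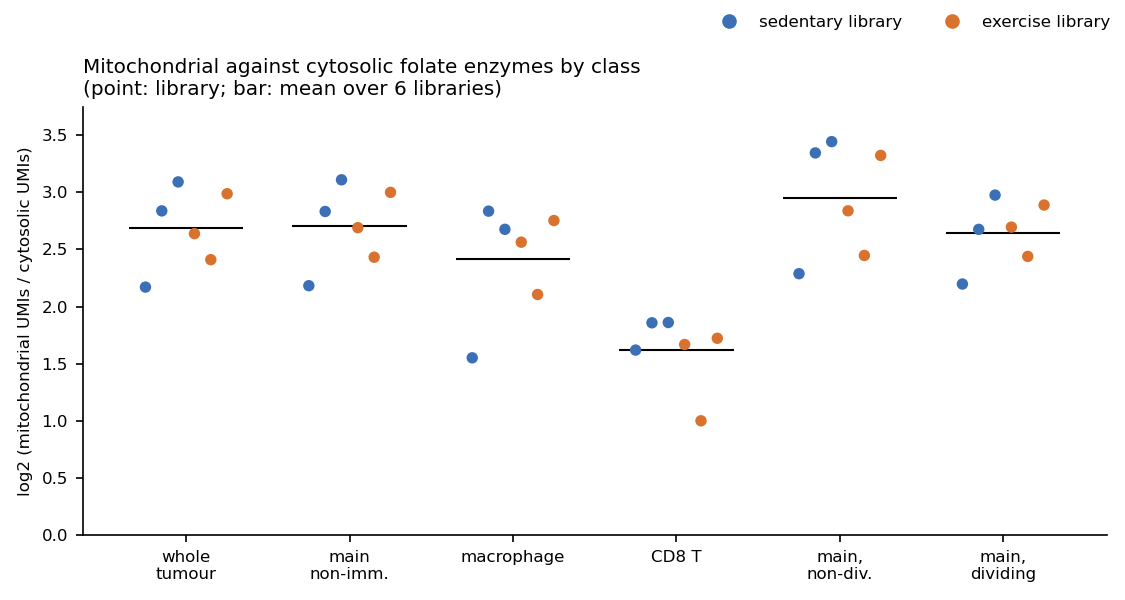
The log2 of summed mitochondrial over summed cytosolic folate enzyme UMIs (vertical axis) by cell class, with 1 point per library, sedentary in blue and exercise in orange, and a bar at the mean of 6. CD8 T-like cells (ratio 2 to 3.63) lie below main non-immune cells (ratio 4.54 to 8.63).

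Dividing main non-immune cells had higher levels of all 9 members than non-dividing ones. Dividing cells were those with a UMI of at least 4 of 6 cell cycle genes (Mki67, Top2a, Cdk1, Ccnb1, Birc5 and Ube2c) and non-dividing cells those with at most 1, which gave 8270 and 13577 cells. Shmt1 stood at 13.5 to 16.01 CPM with a median of 14.2 in dividing cells and at 2.03 to 2.84 with a median of 2.40 in non-dividing cells. Phgdh stood at 151.8 to 219 (median 174) against 34.5 to 83.7 CPM (median 58.0). Psat1 stood at 224.8 to 288 (median 264) against 39.0 to 92.5 CPM (median 85.2). For each of these 3 genes the lowest dividing library lay above the highest non-dividing one.

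Of 12864 genes tested between dividing and non-dividing main cells, 75.7% were called, 36.4% higher and 39.3% lower in dividing cells. All 9 members were called higher, and their median log2 fold change was 1.48 beside -0.03 over all genes. Shmt1 had the largest difference, at 2.61 (SE 0.08, adjusted p = 1.79e-10 by edgeR with library as a block). Shmt2 followed at 1.99 (SE 0.09), Psat1 at 1.85 (SE 0.11), Phgdh at 1.67 (SE 0.09) and Psph at 1.48 (SE 0.07). Mthfd2 and Mthfd1 stood at 1.38 and 1.37, and the smallest differences were those of Aldh1l2 at 0.83 and Mthfd1l at 0.75. Every member was higher in dividing cells in 6 of 6 libraries. Dividing cells were also deeper, with medians of 26375 to 35338.5 UMIs against 13001 to 19068 per cell. Within a common range of 15000 to 30000 UMIs, 8 of the 9 members were called (69.1% of 11860 genes were), with Shmt1 at 2.47, Shmt2 at 1.58 and Phgdh at 1.40. Aldh1l2 was not, at 0.26 (adjusted p = 0.0994). Depth still differed within this range, with medians of 23258 to 25028 UMIs in dividing and 18337 to 20685 in non-dividing cells.

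**Figure D3:**
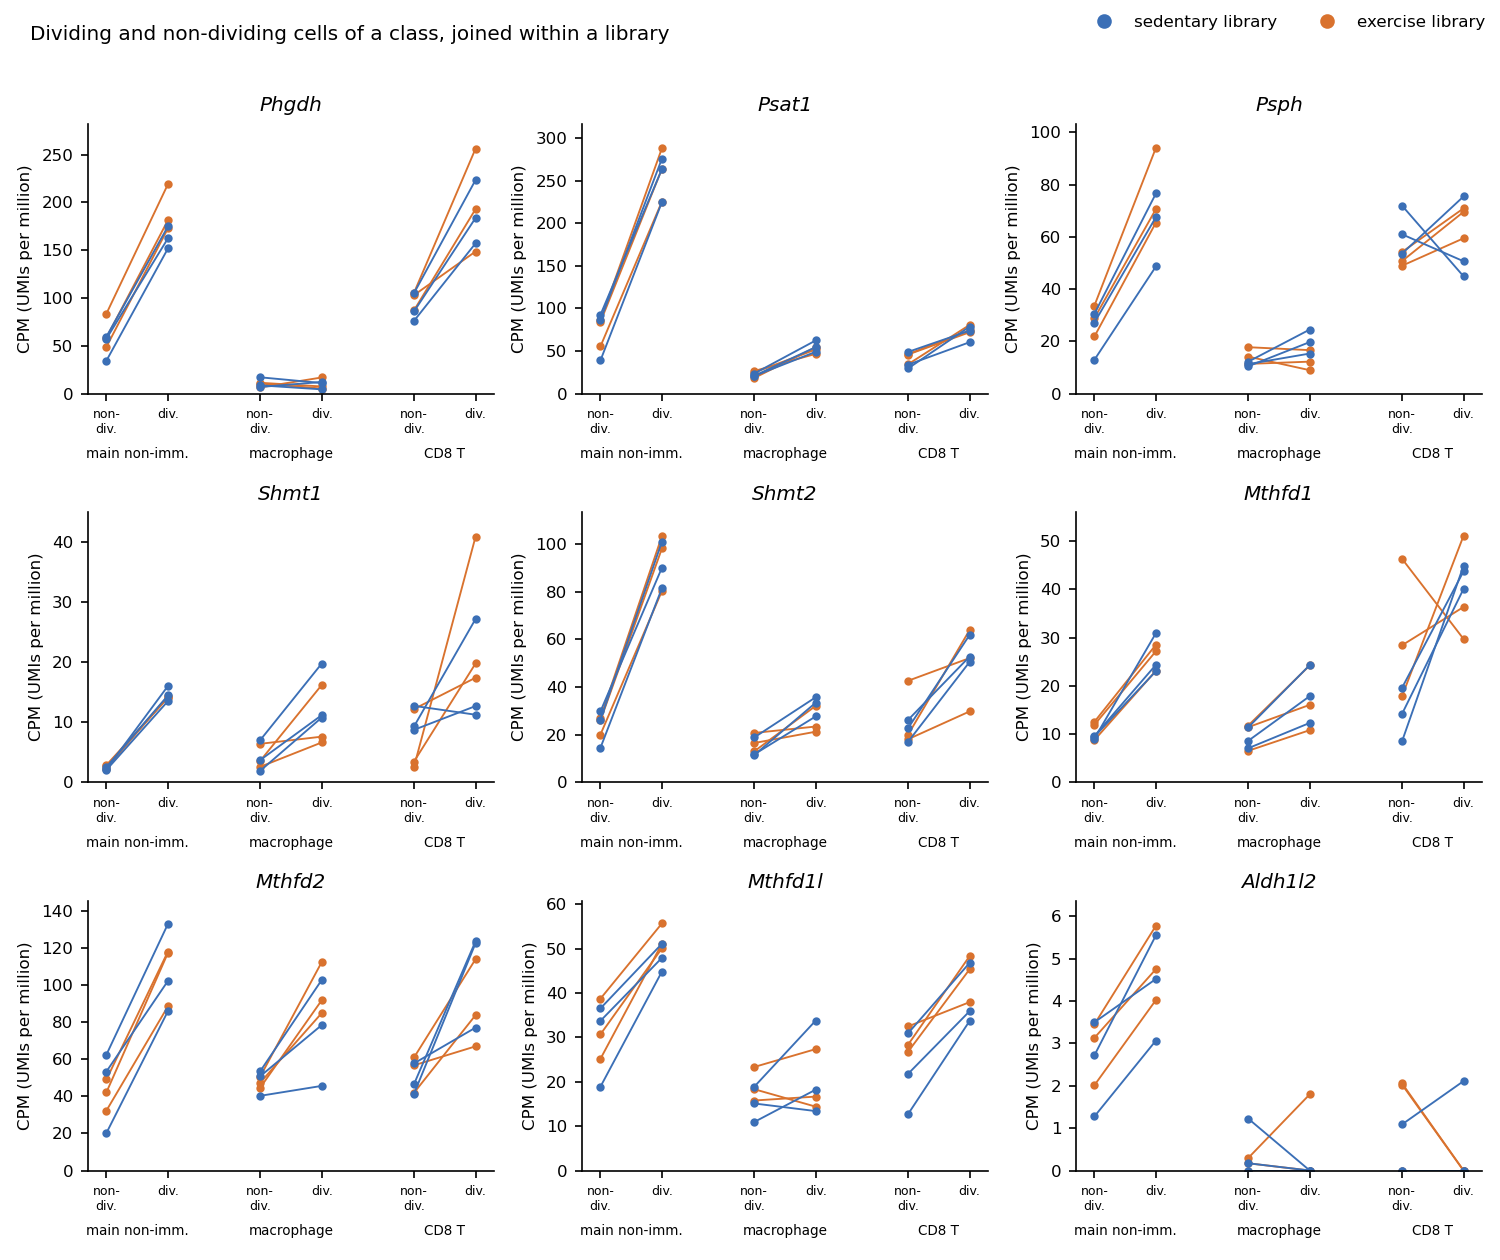
Level of the 9 genes in CPM (vertical axis) in non-dividing and dividing cells of the main non-immune, macrophage and monocyte-like and CD8 T-like classes, with 1 point per library and lines joining the points of a library, sedentary in blue and exercise in orange. In main non-immune cells Shmt1 stands at 2.03 to 2.84 CPM in non-dividing and 13.5 to 16.01 CPM in dividing cells, while Phgdh in macrophage and monocyte-like cells overlaps between the states.

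Graded by the number of cell cycle genes detected, the members had their highest means at 6 or at 5 genes. Mean Phgdh in main non-immune cells was 53.9, 59.2, 85.6, 120, 156.5, 173 and 182 CPM at 0 to 6 genes detected. Psat1, Psph, Shmt2, Mthfd2, Mthfd1l and Aldh1l2 also had their highest mean at 6 genes. Of these, Mthfd2, Mthfd1l and Aldh1l2 had a lower mean at 1 gene than at 0. Shmt1 went from 1.91 CPM at 0 genes to 18.01 at 5 and 13.4 at 6, and Mthfd1 from 9.45 to 29.5 and 25.3. Both cytosolic folate enzymes thus had their highest mean at 5. For both, the ranges of the libraries at 5 and at 6 genes overlapped, and no test was made. The classes with more genes detected were deeper, with median UMIs of 12388 to 17762 at 0 genes and 28460 to 39812 at 6, and the part of depth in these means was not tested.

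**Figure D4:**
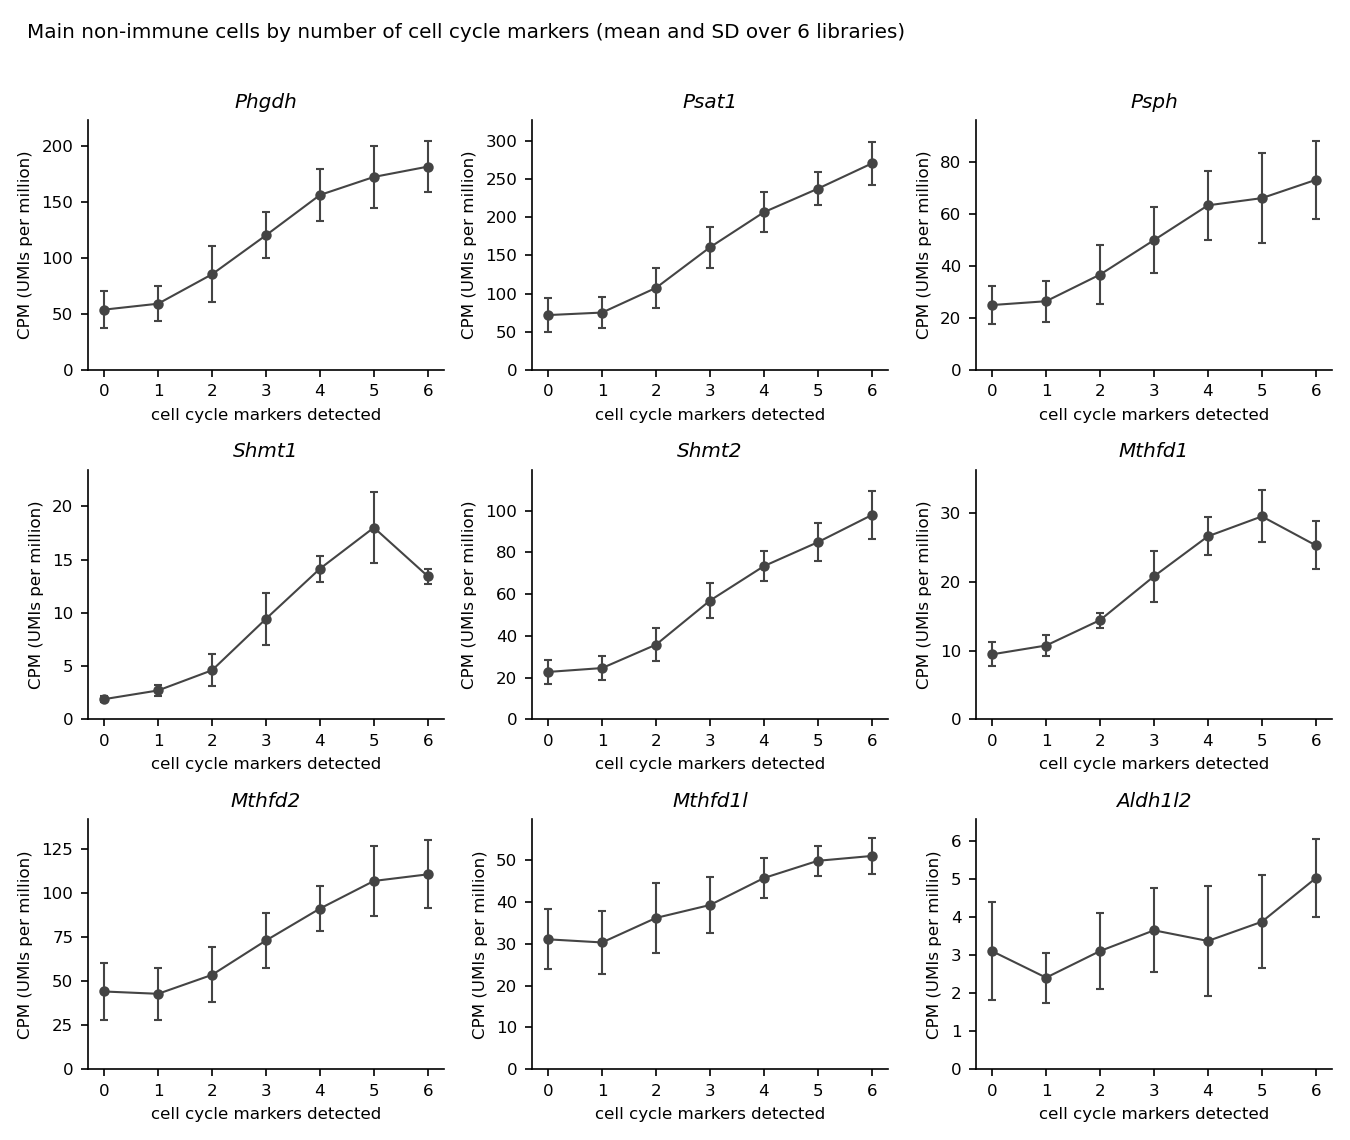
Mean level in CPM over the 6 libraries of each gene in main non-immune cells (vertical axis) by the number of the 6 cell cycle genes detected in the cell (horizontal axis, 0 to 6), with the SD over libraries as bars. Phgdh goes from 53.9 to 182 CPM, and Shmt1 is highest at 5 genes (18.01 CPM) and lower at 6 (13.4 CPM).

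The immune classes showed the difference for some members and not others. In macrophage and monocyte-like cells 5 of 8 members were called higher in dividing cells, where 32.3% of 8996 genes were called, 16.2% higher and 16% lower. Shmt1 stood at a log2 fold change of 1.46, Psat1 at 1.16, Shmt2 at 0.89 and Mthfd1 and Mthfd2 at 0.78 each. Phgdh, at 4.56 to 17.0 CPM in dividing and 6.64 to 17.1 CPM in non-dividing macrophages, did not pass (0.05, SE 0.31, adjusted p = 0.923), nor did Psph (0.22) and Mthfd1l (0.22). The level of Phgdh there is near that of the free-RNA genes. Within 4000 to 12000 UMIs 2 of 7 members tested were called, Psat1 at 1.07 and Mthfd2 at 0.67 (18.8% of 8167 genes were). Shmt2 (0.60, adjusted p = 0.0783) and Mthfd1 (0.55, adjusted p = 0.163) were not. Shmt1 did not reach the filter on low counts there. Dividing cells in this range were still deeper, with medians of 7712 to 9564 against 5194 to 6376 UMIs.

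In CD8 T-like cells, where Shmt1 and Aldh1l2 did not reach the filter on low counts, 6 of 7 members tested were called higher in dividing cells, where 40.7% of 5834 genes were called, 20.2% higher and 20.6% lower. Phgdh stood at 148.6 to 256 CPM with a median of 188 in dividing and at 76.2 to 105.5 with a median of 95.1 in non-dividing cells, ranges that did not overlap (log2 fold change 1.04, SE 0.11, adjusted p = 2.27e-10). Shmt2 stood at 1.14, Mthfd1 at 0.98, Mthfd2 at 0.89, Psat1 at 0.77 and Mthfd1l at 0.62, and Psph, at 0.20, did not pass (adjusted p = 0.327). Mthfd1l was not called by DESeq2 (0.65, adjusted p = 0.0996) or with 1 more marker asked of each cell (0.41, adjusted p = 0.169). Within 3000 to 8000 UMIs 1 of 4 members tested was called, Phgdh at 0.70 (23.8% of 3454 genes were), while Psat1 (0.25, adjusted p = 0.506) and Mthfd2 (0.49, adjusted p = 0.0759) were not. Shmt2, Mthfd1 and Mthfd1l did not reach the filter on low counts in this range. Here too dividing cells were deeper within the range, with medians of 5166 to 6652 against 3677 to 4054.5 UMIs. Whether the difference between dividing and non-dividing cells varied between classes was not tested.

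The arm ratio of main non-immune cells was lower in dividing cells in 6 of 6 libraries, at 6.36 ± 1.22 against 8.09 ± 2.60 in non-dividing cells. The log2 difference was -0.30 ± 0.26 (exact two-sided sign-flip permutation p = 0.03125, adjusted p = 0.0703 over the same 18 tests). Shmt2 made up 86.4% of the pair's UMIs in dividing and 90.4% in non-dividing cells, and Mthfd1l 65.7% and 74.4%. The log2 difference was -0.39 ± 0.39 in macrophage and monocyte-like cells, positive in 1 of 6 libraries (exact permutation p = 0.09375). In CD8 T-like cells it was -0.17 ± 0.34, positive in 3 of 6 (exact permutation p = 0.4375). The cytosolic sums there were small, with 10 UMIs in dividing and 5 in non-dividing cells of sedentary 3.

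Across single main non-immune cells, 5 members were most alike among themselves and with Asns, the asparagine synthetase gene. Pearson's r was computed in each library on the log of counts scaled to 10000 a cell and averaged over the 6 libraries, among 9748 genes. Phgdh was most like Asns (mean r 0.63) and Psat1 (0.63), then Shmt2 (0.56). Psat1 was most like Asns (0.63), Phgdh and H2afz (0.61), Psph most like Phgdh (0.54), Shmt2 most like Psat1 (0.59), and Mthfd2 most like Asns (0.56). For Shmt1, Mthfd1, Mthfd1l and Aldh1l2 the highest mean r was 0.32, 0.29, 0.28 and 0.18, values too low in sparse counts to be read. Cells of a library share its depth and its mix of dividing cells. The value for Phgdh and Psat1 was 0.53 among dividing cells alone and 0.43 among non-dividing cells alone. How much of these values came from depth or from that mix was not tested. Over 37 sums of 7 classes in 6 libraries, which share libraries and differ in depth, the most alike gene was Fam92a for Phgdh (r 0.89), Pebp1 for Psat1 (0.87), Exosc7 for Psph (0.88), Mrm2 for Shmt1 (0.89) and Orc2 for Shmt2 (0.93). It was Pigq for Mthfd1 (0.88), Trim35 for Mthfd2 (0.77), Gtf2e2 for Mthfd1l (0.83) and Glrb for Aldh1l2 (0.91). These sums include the neutrophil-like ones, whose member levels are not read as expression, and other small classes. Aldh1l2 had 0 UMIs in the CD4 and Treg-like, NK-like and dendritic-like sums, so its value is not read.

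Genes that feed or use the pathway were counted in the same comparison of main non-immune cells, where 36.4% of all genes were called higher in dividing cells and 39.3% lower, with a median of -0.03. In the list of purine synthesis enzymes, a path with steps that consume formyl-folate, 7 of 8 were called higher and 0 lower. The median log2 fold change of the list was 0.86, and Pfas stood at 1.33, Adsl at 0.98 and Impdh2 at 0.75. Of 15 other folate genes tested 9 were called higher and 4 lower, with a median of 0.19. Tyms, the thymidylate synthase, stood at 80.1 ± 9.32 CPM in dividing and 12.9 ± 1.76 CPM in non-dividing cells (2.64), and Gcsh stood at 1.03. Of 9 genes of serine transport and use, 5 were called higher, among them Sfxn2 (1.45) and Slc1a5 (1.33), and 2 lower, among them Sfxn3 (-0.50). Of 7 genes of the methionine cycle and transsulfuration, 5 were called higher and 1 lower, with Ahcy at 1.54, Cth at 1.67 and Mat2b at -0.30.

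The list of Atf4 targets, genes of the amino acid response to which Phgdh and Psat1 are known to belong, had 18 of 24 called higher and 6 lower in dividing main cells (36.4% and 39.3% of all genes), with a median of 0.70. Slc7a5 stood at 1.51, Gars at 0.88 and Nars at 0.79. Against CD8 T-like cells 20 of the 24 were called higher in main non-immune cells and 0 lower (40.7% and 32.2% of all genes), with a median of 1.03 beside 0.11 over all genes. Asns stood at 102.4 ± 18.3 CPM in main non-immune and 19.9 ± 6.47 CPM in CD8 T-like cells (2.53, SE 0.12), Atf5 at 3.08 and Vldlr at 3.92. Against macrophage and monocyte-like cells 17 of 24 were called higher and 4 lower (41.3% and 38.3% of all genes), with Asns at 3.51, Vldlr at 3.78 and Cebpb at -1.95.

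None of the 9 members was called between exercise and sedentary libraries in the whole tumour or in main non-immune cells. Nor was any of the 8 tested in macrophage and monocyte-like and in CD8 T-like cells, where Aldh1l2 did not reach the filter on low counts. Phgdh in main non-immune cells stood at 93.6, 116 and 108 CPM in sedentary 1, 2 and 3. The exercise values were 163, 119 and 110 CPM, for libraries 5, 6 and 8. Exercise 5 was the highest and sedentary 1 the lowest, and the groups overlapped because exercise 8 and sedentary 2 crossed. Psat1 values were 131.9, 187 and 164 CPM without running against 188, 150.5 and 167 CPM with it, and those of Mthfd2 53.0, 79.5 and 90.6 CPM against 85.6, 64.03 and 76.3 CPM, with overlap in both.

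In the same library order, Psph stood at 31.0, 49.1 and 49.9 CPM against 69.4, 47.3 and 46.2 CPM. Shmt2 stood at 47.8, 62.7 and 57.1 CPM against 67.6, 54.0 and 57.7 CPM. For both genes exercise 5 was the highest and sedentary 1 the lowest, with the other 4 libraries between them. Sedentary 1 was the lowest of the 6 libraries for 7 of the 9 members and exercise 5 the highest for 7 of 9. Exercise 5 had the largest share of dividing cells in this class, 40.3%, against 28.8% in sedentary 1, 38.5% and 23.9% in the other sedentary and 35.6% and 23.4% in the other exercise libraries. The median depth of exercise 5 was 22404.5 UMIs a cell within this class, where the libraries ranged from 15611 to 26084.

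For exercise in main non-immune cells edgeR called 1 of 14397 genes (0.00695%), and 0 of the 9 members were called by edgeR, 0 by DESeq2 and 0 at an unadjusted p under 0.05. Over all genes 583 had an unadjusted p under 0.05 and DESeq2 called 31. Phgdh had a log2 fold change of 0.30 (SE 0.16, adjusted p = 0.999), Psph of 0.32 (SE 0.23), Aldh1l2 of 0.22 (SE 0.26) and Mthfd1l of 0.14 (SE 0.15). Mthfd1, Shmt2, Shmt1, Psat1 and Mthfd2 stood at 0.10, 0.10, 0.09, 0.06 and 0.01. All 9 values were above 0, with a median of 0.10, but not without single libraries. Without sedentary 1 Psat1 stood at -0.071, Shmt2 at -0.017, Mthfd2 at -0.19 and Aldh1l2 at -0.029, and without exercise 5 Psat1 stood at -0.0067 and Mthfd2 at -0.072. Shmt1 stood at -0.024 without sedentary 3, and Mthfd2 at -0.0090 without exercise 8. None of the 9 members separated the groups in this class, where 8.56% of genes did.

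Among dividing main cells alone the Phgdh value was 0.24 (SE 0.10, edgeR unadjusted p = 0.0492, adjusted p = 0.9997), with 0 of 12748 genes called. Among non-dividing cells alone the Phgdh value was 0.32 (SE 0.27), with 1 of 12957 genes called. Neither value passed after adjustment, and the part of the dividing share in the exercise values was not tested.

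**Figure D5:**
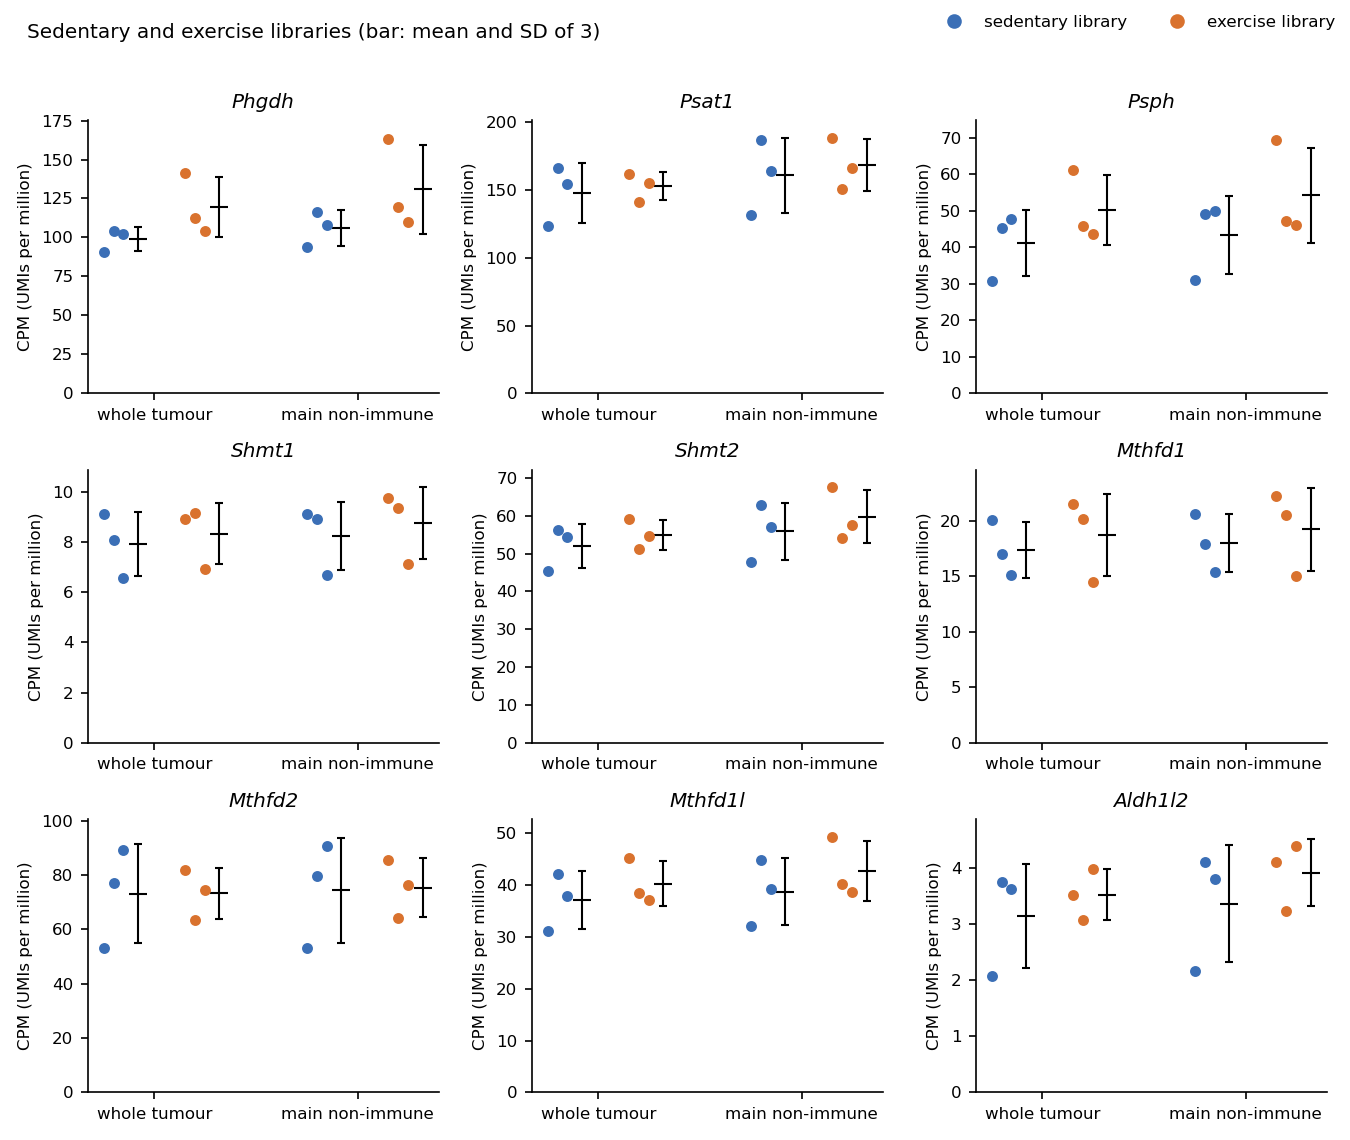
Level of the 9 genes in CPM (vertical axis) in the whole tumour and in main non-immune cells of the 3 sedentary (blue) and 3 exercise (orange) libraries, with 1 point per library and bars for the mean and SD of each group. In main non-immune cells the groups overlap for 9 of 9 genes, and sedentary 1 and exercise 5 hold the lowest and the highest point of 7 genes each.

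The sedentary libraries had 90.4, 104.3 and 102 CPM of Phgdh in the whole tumour, and the exercise libraries 142, 113 and 104.4 CPM, so that the groups did not overlap, by the narrowest margin. That made 1 of 9 members, where 6.79% of 15482 genes separated the groups. Its log2 fold change was 0.26 (SE 0.12, adjusted p = 0.9998), and edgeR called 0% of the genes, 0 of 15482, with 413 at an unadjusted p under 0.05 and 18 called by DESeq2, no member among either. In whole-tumour sums fewer cells of a type and less RNA per cell cannot be told apart.

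The immune classes gave no call of a member either. In macrophage and monocyte-like cells edgeR called 0% of genes, 0 of 10671, with 344 at an unadjusted p under 0.05 and 4 called by DESeq2. The members ran from -0.27 (SE 0.42) for Shmt1 to 0.20 (SE 0.25) for Mthfd1l, and 0 of the 8 tested separated the groups (7.68% of genes did). In CD8 T-like cells edgeR called 1 of 8647 genes (0.0116%), with 250 at an unadjusted p under 0.05 and 1 called by DESeq2. The sedentary libraries had 31.0, 24.8 and 25.5 CPM of Mthfd1 there, and the exercise libraries 32.3, 45.4 and 33.7 CPM. These groups did not overlap (1 of 8 members, where 8.4% of genes did so), and the log2 fold change of 0.35 (SE 0.21) did not pass. The lowest member value was that of Shmt2, at -0.01 (SE 0.22).

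A test of the difference between classes in the exercise value called 0 of 13698 genes for main non-immune against macrophage and monocyte-like cells, with 567 at an unadjusted p under 0.05 and 3 called by DESeq2. Against CD8 T-like cells it called 15 of 13285 genes (0.113%). None of the members was called in either. The arm ratio did not separate the groups. Its mean over the main non-immune sums was 6.76 ± 2.07 without running and 6.62 ± 1.31 with it (SD, n = 3; p = 1, exact permutation test, two-sided). The p was also 1 in the whole tumour, 0.9 in macrophage and monocyte-like and 0.3 in CD8 T-like cells, where 3 libraries against 3 cannot go below 0.1. Of the pathway lists, 0 of the 24 Atf4 targets, 0 of 16 folate genes, 0 of 9 serine transport genes and 0 of 8 purine genes were called in main non-immune cells by edgeR.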

How the data were processed

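Single-cell RNA was measured in 6 whole-tumour libraries, 3 sedentary and 3 exercise, grouped by the treatment label. The authors deposited unnormalised UMI counts, 1 matrix of genes by barcodes for each library. Cell Ranger 6.1.2 and mm10 are named per the submitters' processing notes, while the matrix headers name software version 3.1.0, and which of them made the counts is not settled here. How reads matching several places were treated is not given in the sources used here. Gene positions came from GENCODE's GRCm38 annotation, and promoters from RefSeq.

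Barcodes with fewer than 300 genes or 500 UMIs (1756) or more than 20% mitochondrial UMIs (4205) were removed, and 861 doublet calls of Scrublet (scanpy 1.11.5, 0.946% to 2.42% of a library) were dropped, so doublets remain. Empty droplets were not used, and free RNA was not subtracted. Cells were classed by fixed markers: at least 3 of 7 for main non-immune cells, 4 of 11 for macrophage and monocyte-like cells, and 3 of 6 T cell genes with Cd8a or Cd8b1 for CD8 T-like cells, each within limits on other lineages. Counts were summed per library and class, since cells are not replicates. Classes with at least 20 cells in at least 3 libraries were described.

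Sums were tested with edgeR 4.0.16 (quasi-likelihood test, TMM, filterByExpr, R 4.3.3) and Benjamini-Hochberg adjustment over all genes tested, called under 0.05. Exercise was tested with no covariate, and classes and dividing against non-dividing cells with library as a block, since both sums of a pair come from 1 tumour. Arm ratios were tested by exact permutation (numpy 2.4.6). CPM values and their SDs are over libraries, and CPM means UMIs per 1000000 UMIs of the sum. Intervals were not computed for sums, whose depth ran from 509350 to 2821506 UMIs in CD8 T-like cells and from 69761304 to 111767716 in main non-immune cells. On simulated counts with known changes the test called 143 of 198 changed genes and 12 others for exercise in main non-immune cells. It called 150 of 173 and 7 others for a pair of classes, and 186 of 191 and 12 others for dividing cells. For the difference of the exercise value between classes it called 88 of 184 and 6 others. Whether the test would call differences as small as the exercise values of the members was not tested.

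The text names the 9 members in every comparison, of each pathway list the 3 genes with the smallest unadjusted p, and for each member the most alike genes. Some genes this rule takes are not reported here. The members and lists were chosen with earlier results of these data known. Alternatives were DESeq2 1.42.0, RLE factors, no filter on low counts, each library left out, doublet calls kept, a mitochondrial limit of 10%, 1 more marker, no block, arm sums without Mthfd1l and Aldh1l2, and arm means over cells. Common UMI ranges and dividing or non-dividing cells alone were added after the data were seen.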

Additional observations from a re-analysis of the deposited data

Results flagged for a closer look

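Within-library differences of the 9 members and of the arm ratio were searched for a library far from the other 5. Of 54 differences looked at, 3 held one, where chance gives about 1 in 20. In main non-immune cells the Mthfd1 difference between dividing and non-dividing cells was 1.77 on the log2 scale in sedentary 1, against 1.19 to 1.40 in the other libraries. In CD8 T-like cells the Phgdh difference was 0.53 in exercise 6, against 1.04 to 1.28 in the others. The log2 arm ratio of CD8 T-like minus macrophage and monocyte-like cells was 0.068 in sedentary 1, against -1.11 to -0.82 in the others. All 3 kept the sign of their group except the arm ratio of sedentary 1.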

How the results depend on the processing

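The member calls between classes and between dividing and non-dividing cells that changed with a setting are those named in the report (Aldh1l2, Shmt2, Mthfd1, Psat1 and Mthfd2 in a common UMI range, Mthfd1l in CD8 T-like cells, and Phgdh and Psph against CD8 T-like cells). Mthfd1 in dividing macrophages also missed the threshold with 1 more marker (0.61, adjusted p = 0.101). In the common UMI range Shmt1 in macrophage and monocyte-like cells was not tested. Nor were Shmt2, Mthfd1 and Mthfd1l in CD8 T-like cells, so these calls were not checked there. The causes of the changes below were not tested.

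Counts of called genes for exercise in main non-immune cells were 31 with DESeq2, 2 with no filter, 0 with 1 more marker, 0 in dividing cells only, and 0 to 1 without each library. The whole tumour gave 18 with DESeq2. Macrophage and monocyte-like cells gave 4 with DESeq2, 9 with no filter and 0 to 1 without each library, and CD8 T-like cells 27 with no filter, 0 with 1 more marker and 0 to 4 without each library. The difference of the exercise value between main non-immune and macrophage and monocyte-like cells gave 3 with DESeq2, 26 with no filter and 0 to 3 without each library. Against CD8 T-like cells it gave 6, 30 and 10 to 49. Dividing against non-dividing cells gave 1537 genes in macrophage and monocyte-like cells in the common UMI range, and in CD8 T-like cells 1320 with DESeq2 and 821 in the common range.

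Values of members that were not called changed sign. Without each library, exercise values in main non-immune cells ran from -0.071 to 0.19 for Psat1, -0.024 to 0.21 for Shmt1, -0.017 to 0.19 for Shmt2, -0.19 to 0.20 for Mthfd2 and -0.029 to 0.39 for Aldh1l2. Shmt1 stood at -0.035 in dividing cells only and Mthfd2 at -0.16 in non-dividing cells only. In macrophage and monocyte-like cells Shmt1 ran from -0.65 to 0.18 and Mthfd1l from -0.078 to 0.45, and in CD8 T-like cells Shmt2 from -0.20 to 0.13. Mthfd2 in main non-immune minus CD8 T-like cells ran from -0.0026 to 0.19. Phgdh in dividing minus non-dividing macrophages ran from -0.44 to 0.19, with -0.083 by DESeq2 and -0.0022 with no filter. In the common UMI range Mthfd1l stood at -0.021 in macrophage and monocyte-like cells and Psph at -0.16 in CD8 T-like cells.

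The exercise difference of the log2 arm ratio ran without each library from -0.29 to 0.17 in the whole tumour, -0.26 to 0.20 in main non-immune and -0.28 to 0.36 in macrophage and monocyte-like cells. In main non-immune cells it was 0.0085 with 1 more marker and 0.045 as a mean over cells. With 1 more marker the dividing minus non-dividing ratio was 0.015 in macrophage and monocyte-like and 0.28 in CD8 T-like cells, and the Shmt2 share in CD8 T-like cells differed by 1.51 points, against -10.6 to 3.43 without each library.

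No paired analysis was possible because sedentary libraries 1, 2 and 3 and exercise libraries 5, 6 and 8 share no number. Between classes the replicate block is the library itself. With no replicate block 10771, 9766 and 6946 genes were called between classes and 7937, 2197 and 2027 between dividing and non-dividing cells of the 3 classes, and Phgdh in dividing macrophages stood at -0.023. Without the block Myc (0.42, adjusted p = 0.0626) and Nfe2l2 (-0.31, adjusted p = 0.0939) were not called between dividing and non-dividing main cells, nor Nfe2l2 (0.27, adjusted p = 0.0953) between main non-immune and macrophage and monocyte-like cells.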

Other observations

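Some partner enzymes of the pathway were set apart by class. Gldc, which encodes the decarboxylase of the glycine cleavage system, stood at 38.7 ± 10.6 CPM in CD8 T-like cells, 1.29 ± 0.423 in main non-immune cells and 0.208 ± 0.180 in macrophage and monocyte-like cells (SD, n = 6). Its log2 fold change was -4.85 (SE 0.18, adjusted p = 2.81e-20 by edgeR) in main non-immune minus CD8 T-like cells, and the classes did not overlap in any library. Slc1a5, a transporter of neutral amino acids, was also higher in CD8 T-like cells, at 71.7 ± 8.96 CPM against 26.7 ± 3.32 in main non-immune cells (-1.33). Of 16 folate genes tested there, 5 were called higher in main non-immune cells and 6 lower, near the 72.8% of all genes called. The purine enzymes Ppat (-0.94) and Gart (-0.80) were lower in main non-immune cells and Impdh2 (0.39) was higher.

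Of 7 genes of methionine metabolism tested between main non-immune and macrophage and monocyte-like cells, 5 were called higher in the main cells and 2 lower, where 79.6% of all genes were called (41.3% higher and 38.3% lower). Mtap, which recycles methionine from polyamine synthesis, stood at 158 ± 9.01 and 27.6 ± 3.06 CPM (2.46), and Cth, an enzyme of cysteine synthesis, at 6.38 ± 2.13 and 0.388 ± 0.391 CPM, a pair whose lower value rests on few UMIs. Mtr, the methionine synthase, had 8.50 ± 0.772 and 31.8 ± 4.16 CPM (-1.96). Mthfd2l, the close relative of Mthfd2, stood at 30.6 ± 3.47 and 6.76 ± 0.506 CPM (2.12).

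Nfe2l2, which encodes a regulator of the antioxidant response, stood at 354 ± 77.7 CPM in main non-immune, 281 ± 45.2 in macrophage and monocyte-like and 39.2 ± 6.35 in CD8 T-like cells. Myc stood at 14.7 ± 2.31, 13.0 ± 2.07 and 21.5 ± 7.42 CPM in the same order. Its difference between main non-immune and CD8 T-like cells (-0.47, adjusted p = 0.0216) was not called without sedentary 1, exercise 6 or exercise 8, or by DESeq2 (-0.42, adjusted p = 0.128). Between dividing and non-dividing main cells Myc stood at 0.48 and Nfe2l2 at -0.31.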
